A study of Mus musculus with 12 samples.

Results

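Surface proteins that separate follicular (FO) from marginal zone (MZ) B cells were followed at the level of their transcripts in B cells of the Peyer's patches (PP), the lymphoid follicles of the small intestine. The set was fixed by name and holds 9 genes of the 36175 in the deposited table: Fcer2a (CD23), Cr2 (CD21/CD35), Cd55, Cd38, Cd24a, Ms4a1 (CD20), Cd1d1, Cd9 and Cd93. All 9 had a normalized TPM value of at least 1 in every mouse and were therefore among the 12590 genes tested.

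The study asked how B cells of PP change after ischemic brain injury, and bulk RNA-seq was performed on 6 sham and 6 stroke libraries, each from one mouse. All mice were C57BL/6JHsd, and the methods describe male animals of 10 to 12 weeks. Stroke mice had the middle cerebral artery occluded for 1 h and then reopened, and sham mice had the same surgery with a filament that was placed in the common carotid artery and taken out at once. Both groups received buprenorphine and carprofen, so neither was without surgery or analgesia, and cells were collected 18 h after surgery with a pan-B-cell kit followed by CD45 beads. The labels give a replicate number from 1 to 6 in each group but do not say what mice of the same number share.

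In the mouse, FO B cells recirculate through follicles and carry much CD23 and a medium amount of CD21, whereas MZ B cells of the spleen carry much CD21 and CD1d, little CD23, and CD9. CD23 is the low-affinity IgE receptor. CD21 binds fragments of complement C3 and lowers the threshold of the B cell receptor together with partners such as CD81, and in mice the same gene, Cr2, gives both CD21 and the longer CD35. CD24 and CD93 mark immature and transitional B cells, and mouse germinal centre B cells carry less CD38 than resting ones. The values here are transcript levels of a mixed population, in which fewer cells of a type and less RNA per cell cannot be told apart.

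Both leading markers are located on minus strands of GRCm38, Cr2 (ENSMUSG00000026616) at chr1:195136811-195176716 with 19 exons in its longest transcript and Fcer2a (ENSMUSG00000005540) at chr8:3681737-3694175 with 12. Promoter windows from RefSeq (build GRCm38.p6), which run from 250 bases before a start site to 50 bases after it, were at hand for 5 of the 9 genes (Cr2, Fcer2a, Cd38, Cd55 and Cd9), with 3 windows for Fcer2a. They were searched on both strands for TGGGAA, the 6-base core bound by RBPJ, through which NOTCH2 acts in MZ B cells. The core was found in 5 of these 7 windows and in 4 of the 5 genes. Of all 32851 windows, 25.6% held it. The windows of Cr2 and of 2 Fcer2a start sites are shown because these genes had the largest differences between the groups; capitals mark the core or its reverse complement TTCCCA.
Cr2, chr1:195176670-195176969, minus strand: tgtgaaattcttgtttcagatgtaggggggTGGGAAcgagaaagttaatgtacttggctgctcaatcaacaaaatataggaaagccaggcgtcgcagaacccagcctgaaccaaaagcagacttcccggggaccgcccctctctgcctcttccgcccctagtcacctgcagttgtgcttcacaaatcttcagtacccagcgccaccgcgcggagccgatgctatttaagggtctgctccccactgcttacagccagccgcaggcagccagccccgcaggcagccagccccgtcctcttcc
Fcer2a, 5′-most start, chr8:3694125-3694424, minus strand: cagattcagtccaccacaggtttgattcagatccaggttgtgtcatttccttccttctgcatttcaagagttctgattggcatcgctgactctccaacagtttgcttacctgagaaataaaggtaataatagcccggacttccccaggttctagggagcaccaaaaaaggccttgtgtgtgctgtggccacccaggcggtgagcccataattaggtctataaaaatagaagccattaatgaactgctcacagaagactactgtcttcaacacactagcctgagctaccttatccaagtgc
Fcer2a, inner start, chr8:3690812-3691111, minus strand: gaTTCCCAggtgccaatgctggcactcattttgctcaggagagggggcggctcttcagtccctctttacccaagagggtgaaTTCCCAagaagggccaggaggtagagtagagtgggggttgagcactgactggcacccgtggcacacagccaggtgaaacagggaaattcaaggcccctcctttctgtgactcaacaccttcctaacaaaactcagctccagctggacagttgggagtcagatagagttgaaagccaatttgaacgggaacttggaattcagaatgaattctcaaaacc
The Cr2 core began 220 bases before the start site. The window of the 5′-most Fcer2a start did not hold these letters, and the inner one shown held them on the other strand, beginning 248 and 168 bases before the start. The third Fcer2a window, of another inner start and not shown, held TGGGAA beginning 205 bases before its start. A match is a description of the sequence and no evidence of binding in these cells.

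A pair of libraries stood apart. Stroke 5 was the lowest of all mice for 4 markers (Cr2, Fcer2a, Cd38 and Ms4a1) and the highest for Cd93, and sham 6 was the highest for Fcer2a, Cd55 and Cd1d1 and the lowest for Cd24a. Marker extremes were not confined to this pair. Sham 4 was the highest for Cr2 and Cd38 and the lowest for Cd9 and Cd93, and sham 2 was the highest for 3 markers. The sample weights of stroke 5 and sham 6 in limma were 0.305 and 0.274, against 0.659 to 3.10 for the others. Genes with short transcripts (up to 1918 bases) were compared with those with long ones (from 4653 bases) by their median centred log2 value. The short median minus the long median was -0.285 in stroke 5 and -0.115 in sham 6, against -0.040 to 0.168 in the others. Stroke 6 listed 30060 genes above 0, and the other mice 20626 to 23947.

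Cr2 and Fcer2a were lower in stroke than in sham, and Cd1d1 was higher, at an unadjusted p under 0.05. The call of Cr2 was lost only with each mouse scaled to the same total, and those of Fcer2a and Cd1d1 also under other settings, named beside each. Among the other 6 markers, Cd24a, Cd38, Ms4a1 and Cd55 had lower means in stroke and Cd9 and Cd93 had higher means, none of them at that threshold. In the limma fit across all genes, 2 of the 9 markers were lower at an unadjusted p under 0.05, against 1.69% of all genes tested, and 1 was higher, against 4.42%. No marker had an adjusted p under 0.05, which 0% of the 12590 genes reached (Benjamini-Hochberg, smallest value 0.468, 770 genes at an unadjusted p under 0.05). The groups did not separate fully for any marker, against 0.437% of all genes. The median log2 fold change of the 9 markers was -0.36, and that of all genes tested was 0.01. With each mouse scaled to the same total, these medians were -0.23 and 0.13. No marker then had an unadjusted limma p under 0.05, and Cr2 had a log2 fold change of -0.70 (exact permutation p = 0.0931).

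Cr2 values in sham mice ranged from 212 to 294 with a median of 257. In stroke mice they ranged from 47.1 to 213 with a median of 171. Of 6 stroke mice, 5 were below every sham mouse, and the remaining one (stroke 2, at 213) was level with the lowest sham mouse (sham 1, at 212). The log2 fold change was -0.83 (SE 0.30, 95% interval -1.48 to -0.18, n = 6 and 6), a level 0.563 times that of sham. The limma p was 0.0156 and the adjusted p was 0.748, and the exact two-sided permutation test over the 924 assignments of the mice gave p = 0.00433. Cr2 ranked 256 of 12590 genes by its limma p.

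Stroke 5 was far below the other stroke mice for Cr2, at 47.1 against 169 for the next. Without it the log2 fold change was -0.51 (exact permutation p = 0.00649). With any other single mouse left out it was between -0.94 and -0.79, and the unadjusted limma p of Cr2 was under 0.05 in all 12 fits that left out 1 mouse.

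Fcer2a values in sham mice ranged from 199 to 318 with a median of 283. In stroke mice they ranged from 48.6 to 234 with a median of 218. All 6 stroke mice were below the sham mean of 277, but only 2 (stroke 3 and stroke 5) were below every sham mouse, because sham 1 was at 199. The log2 fold change was -0.72 (SE 0.33, 95% interval -1.43 to -0.000764), with a limma p of 0.0498, an adjusted p of 0.791 and an exact permutation p of 0.0108. Stroke 5 was again the lowest, at 48.6 against 177 for the next, and without it the log2 fold change of Fcer2a was -0.36 (exact permutation p = 0.0216). Its unadjusted limma p was under 0.05 in 6 of the 12 fits that left out 1 mouse, and its exact permutation p in all 12 (0.0108 to 0.0411). With each mouse scaled to the same total, the exact permutation p of Fcer2a was 0.236. The call of Fcer2a was also lost with a pseudocount of 0.1, a filter on the mean, no filter, scaling to the same total, quantile normalization, and with sham 1 and sham 2 both left out.

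**Figure D1:**
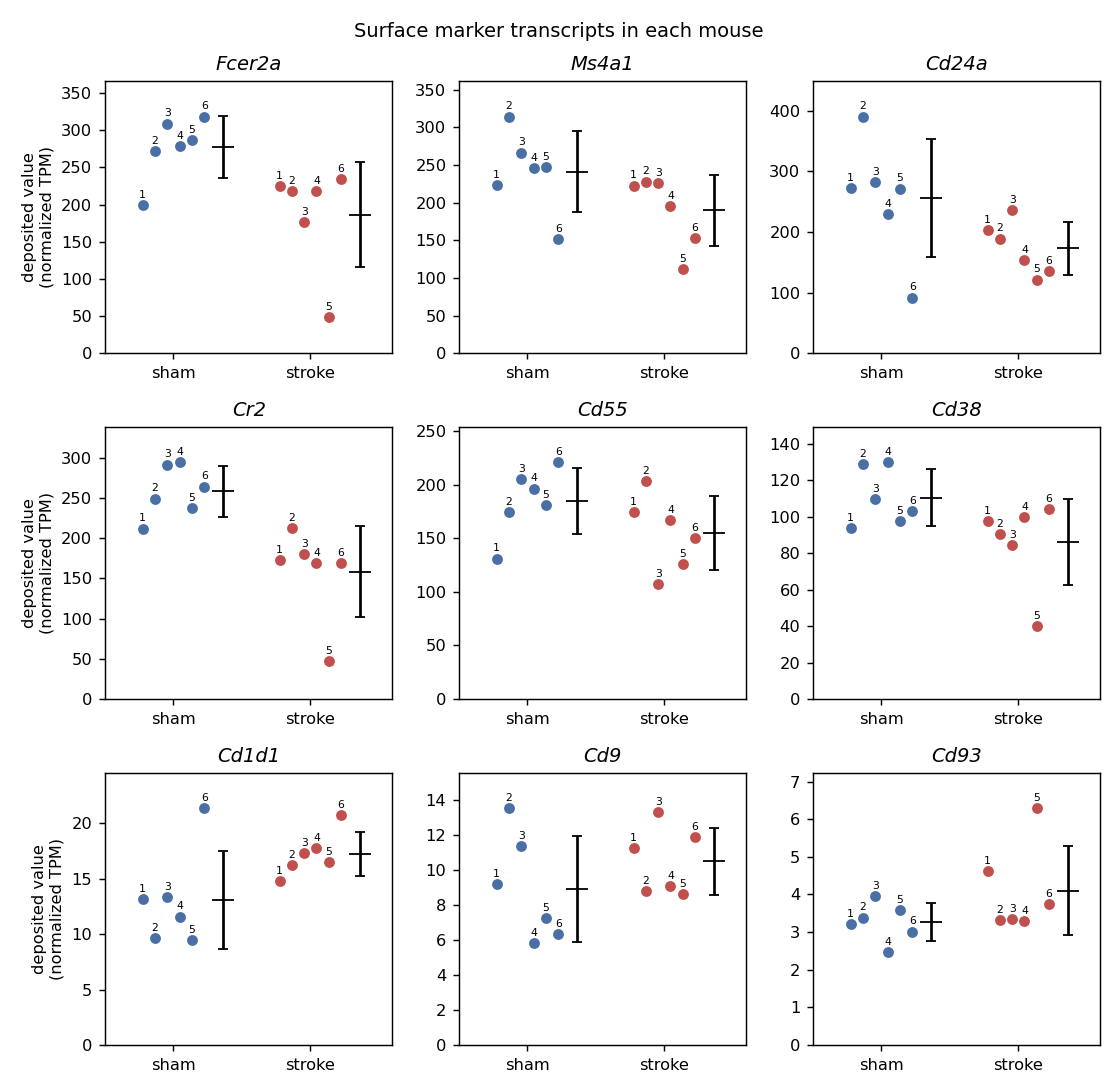
Normalized TPM values (linear axes from 0) of the 9 surface markers, ordered by their median over all mice, in 6 sham (blue) and 6 stroke (red) mice; numbers are replicates, and the black bar gives the mean with 1 SD. Of 6 stroke mice, 5 lie below every sham mouse for Cr2, stroke 5 lies far below the others for Fcer2a, Cr2 and Cd38, and sham 6 is the only sham mouse that is not below every stroke mouse for Cd1d1.

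Cd1d1, at chr3:86995834-86999441, encodes the molecule that presents lipids to natural killer T cells, and it is abundant on MZ B cells. Its values in sham mice ranged from 9.44 to 21.4 with a median of 12.4, and in stroke mice from 14.8 to 20.7 with a median of 16.9. Of 6 sham mice, 5 were below every stroke mouse, and sham 6 was above all of them. The log2 fold change was 0.43 (SE 0.18, 95% interval 0.05 to 0.81), a level 1.35 times that of sham. The limma p was 0.0304, the adjusted p was 0.791 and the exact permutation p was 0.0455. Sham 6 was far above the next sham mouse (21.4 against 13.3), and without it the log2 fold change of Cd1d1 was 0.58 (exact permutation p = 0.00216), the smallest p that the assignments of 11 mice can give. Calls rose over the whole table without sham 6, to 16.6% of all genes at an unadjusted limma p under 0.05, against 6.12% with all mice. Over the 12 fits that omitted 1 mouse, the log2 fold change of Cd1d1 was 0.35 to 0.58, the unadjusted limma p was under 0.05 in 7 of 12 fits and the exact permutation p in 2 of 12 (without sham 6 and without stroke 1). The call of Cd1d1 was also lost with quantile normalization, scaling to the same total or by the median of ratios, or the length trend removed, and with sham 1 and sham 2 both left out.

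Cd9 is a tetraspanin found on MZ B cells, B1 cells and plasma cells, and also on epithelium. Its values ranged from 5.81 to 13.5 in sham (median 8.22) and from 8.63 to 13.3 in stroke (median 10.2). Of 6 sham mice, 3 were below every stroke mouse and 1 (sham 2) was above every stroke mouse, and the log2 fold change was 0.27 (95% interval -0.17 to 0.70, limma p = 0.209, exact permutation p = 0.251). Without sham 4 it was 0.16 (exact permutation p = 0.450). The markers of MZ B cells did not share a direction. Cd1d1 and Cd9 had higher means in stroke, and of these only Cd1d1 had an interval that did not include 0. Cr2, whose product CD21 is also abundant on MZ B cells, was lower (log2 fold change -0.83). Among 15 further MZ genes, 12 had a log2 fold change below 0 (48.6% of all genes tested did).

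Cd55 encodes decay-accelerating factor, which protects cells from complement. Its values ranged from 131 to 221 in sham (median 188) and from 107 to 204 in stroke (median 159). Only 2 stroke mice were below every sham mouse, and the log2 fold change was -0.27 (95% interval -0.64 to 0.10, limma p = 0.143, exact permutation p = 0.149). It was -0.17 (exact permutation p = 0.299) without stroke 3 and -0.36 (exact permutation p = 0.0455) without sham 1.

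Cd38 encodes an enzyme that consumes NAD and that marks resting FO and MZ B cells in the mouse. Its values ranged from 93.7 to 130 in sham (median 106) and from 40.0 to 104 in stroke (median 94.1). Of the stroke mice, 3 were below every sham mouse and all 6 were below the sham mean. For Cd38 the log2 fold change was -0.41 (95% interval -0.87 to 0.05), with a limma p of 0.0751 and an exact permutation p of 0.0455. Without stroke 5 it was -0.20 (exact permutation p = 0.0887).

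Ms4a1 encodes CD20, which nearly all B cells carry and plasma cells lose. Its values ranged from 151 to 314 in sham (median 246) and from 112 to 228 in stroke (median 209). Sham 6 and stroke 6 were almost level, at 151 and 153. For Ms4a1 the log2 fold change was -0.36 (95% interval -0.81 to 0.09, limma p = 0.108, exact permutation p = 0.136), and it was -0.49 (exact permutation p = 0.0195) without sham 6 and -0.22 (exact permutation p = 0.268) without stroke 5. In the fit without sham 6, 16.6% of all genes had an unadjusted limma p under 0.05.

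Cd24a encodes a small sugar-bearing surface protein that is high on immature B cells. Its values ranged from 91.6 to 390 in sham (median 272) and from 121 to 236 in stroke (median 171). The lowest and the highest of all 12 mice were both sham mice, sham 6 and sham 2. For Cd24a the log2 fold change was -0.48 (95% interval -1.12 to 0.15, limma p = 0.123, exact permutation p = 0.173). Without sham 6 it was -0.76 (exact permutation p = 0.00649), and without sham 2 it was -0.34 (exact permutation p = 0.320). Of all genes, 16.6% had an unadjusted limma p under 0.05 in the fit without sham 6.

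Cd93 encodes the surface protein that the AA4.1 antibody detects on early B cells, and endothelial and myeloid cells carry it too. It was the lowest of the 9, with values from 2.48 to 3.97 in sham (median 3.30) and from 3.30 to 6.30 in stroke (median 3.55). Stroke 5 and stroke 1 were above every sham mouse and the other 4 stroke mice were within the sham range. Cd93 had a log2 fold change of 0.26 (95% interval -0.08 to 0.61, limma p = 0.124, exact permutation p = 0.130), and without stroke 5 it was 0.14 (exact permutation p = 0.268).

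**Figure D2:**
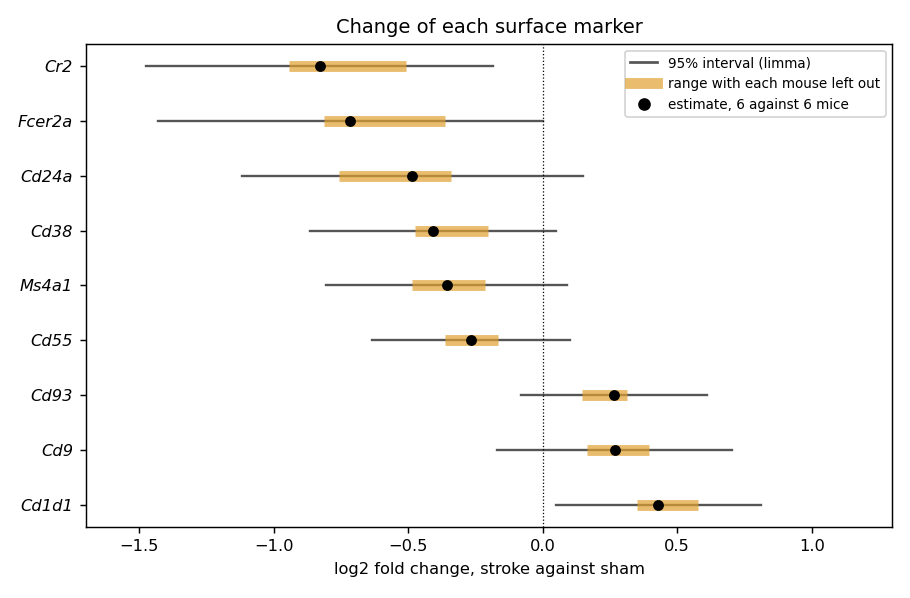
Log2 fold change of stroke against sham for each of the 9 surface markers (6 against 6 mice, limma on log2(value + 0.5)); black points are estimates, thin lines 95% intervals, and thick bars the range of the estimate when each mouse is left out in turn. The intervals of Cr2, Fcer2a and Cd1d1 do not include 0, and no bar crosses 0; the estimate of Cr2 shrinks from -0.83 to -0.51 without stroke 5.

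The values are labelled as normalized TPM, a unit that is scaled by transcript length, and on the basis of that label levels were set side by side between genes. By the median over all 12 mice the order was Fcer2a (229), Ms4a1 (225), Cd24a (216), Cr2 (212), Cd55 (175), Cd38 (98.7), Cd1d1 (15.5), Cd9 (9.15) and Cd93 (3.37). The first 4 could not be ordered, since each was above its neighbour in only 7, 6 and 6 of the 12 mice. Cr2 was above Cd55 in 10 mice, in all 6 sham but in only 4 of 6 stroke mice. From Cd55 downward each gene was above the next in at least 11 of 12 mice. The level of Cd93 was low beside the markers of mature B cells in both groups.

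Ratios between markers were taken within each mouse. Cr2 relative to Fcer2a ranged from 0.829 to 1.06 in sham and from 0.722 to 1.02 in stroke, and 3 of 6 stroke mice were below every sham mouse. Cd1d1 relative to Cr2 ranged from 0.0387 to 0.0810 in sham and from 0.0764 to 0.350 in stroke, and 5 of 6 stroke mice were above every sham mouse. These ratios reuse the values that were tested above and are given without a test.

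**Figure D3:**
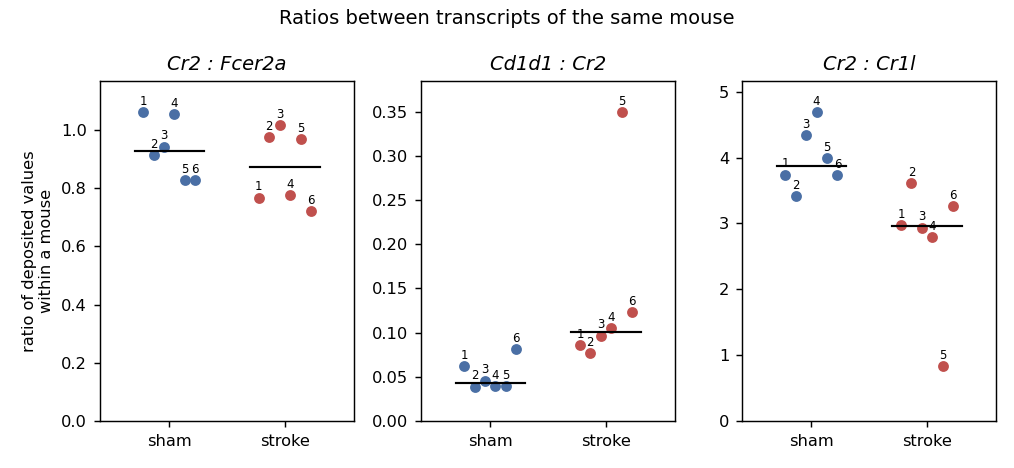
Ratios of normalized TPM values within each mouse (linear axes from 0), for 6 sham (blue) and 6 stroke (red) mice; numbers are replicates and black lines group medians. Cr2 relative to Fcer2a is lower in 3 of 6 stroke mice than in every sham mouse, Cd1d1 relative to Cr2 is higher in 5 of 6 stroke mice than in every sham mouse, with stroke 5 the highest at 0.350, and Cr2 relative to Cr1l is lowest in stroke 5, at 0.831.

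Several of these genes have close copies. Cr1l, a complement regulator related to Cr2 that lies 5224 bases from it on chromosome 1, ranged from 56.6 to 72.8 in sham and from 51.6 to 61.2 in stroke (log2 fold change -0.16, SE 0.10, limma p = 0.133, exact permutation p = 0.0476). The ratio of Cr2 to Cr1l was 3.42 to 4.69 in sham and 0.831 to 3.62 in stroke. Cd55b, which is 16017 bases from Cd55, had a median of 25.8 in sham and 25.4 in stroke (log2 fold change -0.19, SE 0.26, limma p = 0.461, exact permutation p = 0.515). Cd1d2, the copy of Cd1d1 that is annotated as a polymorphic pseudogene, did not pass the filter and was at most 0.510 in any mouse. How reads shared by such copies were divided depends on the authors' transcript quantification.

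Other genes of the same programmes were counted from lists of other B cell markers, of which 76 genes were tested. At an unadjusted limma p under 0.05, 6 were lower and 1 was higher, together 9.21% of the 76, against 6.12% of all genes tested (1.69% lower and 4.42% higher). Of 13 further genes of FO B cells, 2 were lower and none was higher at that threshold. Of these 13, 12 had a log2 fold change below 0 (48.6% of all genes tested did), and the list's median was -0.24. With each mouse scaled to the same total, 8 of 13 were below 0 (27.4% of all genes). The list's median was then -0.11, against 0.13 for all genes, and S1pr1 but not Cxcr5 had an unadjusted limma p under 0.05. S1pr1, the receptor by which lymphocytes leave tissue, ranged from 45.3 to 96.7 in sham and from 30.7 to 70.3 in stroke (log2 fold change -0.71, SE 0.23, limma p = 0.00769, exact permutation p = 0.0173). Cxcr5, the receptor that guides B cells into follicles, ranged from 96.4 to 176 in sham and from 38.3 to 113 in stroke (log2 fold change -0.56, SE 0.26, limma p = 0.0454, exact permutation p = 0.0390). Without stroke 5 the log2 fold change of Cxcr5 was -0.32 (exact permutation p = 0.0714). The limma p of Cxcr5 was under 0.05 in only 5 of the 12 fits that left out 1 mouse (not without sham 1, 2, 3 or 4 or stroke 3, 5 or 6), and its exact permutation p in 7 (not without sham 1, 2, 3 or 4 or stroke 5); the limma call was also lost with a filter on the mean, with no filter, and with sham 1 and sham 2 both left out. S1pr1 passed both in all 12. For S1pr1 4 stroke mice and for Cxcr5 1 stroke mouse were below every sham mouse.

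Of 15 further MZ genes, which include NOTCH2 pathway members, 1 was lower (1.69% of all genes tested were) and none was higher (4.42%) at that threshold. Of these 15, 12 had a log2 fold change below 0 (48.6% of all genes tested did), and the list's median was -0.18. With the same total, 9 of 15 were below 0 (27.4% of all genes) and Hes1 still passed that threshold. The list's median was then -0.06, against 0.13 for all genes. Hes1, a repressor that NOTCH signalling induces, ranged from 7.81 to 22.6 in sham and from 4.50 to 12.6 in stroke (log2 fold change -0.78, SE 0.29, limma p = 0.0184, exact permutation p = 0.0325). Without stroke 5 the log2 fold change of Hes1 was -0.58 (exact permutation p = 0.0628). Its exact permutation p was over 0.05 in 5 of the 12 fits that left out 1 mouse (without sham 1, 2, 3 or 4 or stroke 5), and its limma p in none of them but with sham 1 and sham 2 both left out. Notch2, the receptor itself, had a median of 83.3 in sham and 70.8 in stroke (log2 fold change -0.15, SE 0.17, limma p = 0.400, exact permutation p = 0.400), and the groups overlapped.

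Of 10 immature and transitional genes 4 were tested, and Sox4, a transcription factor of early lymphocytes, was higher in stroke, with values from 1.18 to 2.04 in sham and from 1.68 to 2.85 in stroke (log2 fold change 0.29, SE 0.13, limma p = 0.0486, exact permutation p = 0.0325). The limma p of Sox4 was over 0.05 in 9 of the 12 fits that left out 1 mouse (all but those without sham 1, sham 3 or stroke 3) and in 8 of 14 other alternatives, among them a pseudocount of 1, median-of-ratios scaling, quantile normalization and the replicate block; its exact permutation p was over 0.05 in 6 of 12 (without sham 5 or 6 or stroke 1, 2, 5 or 6). Of 13 germinal centre genes 1 was lower, Gpr183, which encodes a receptor that is switched off in germinal centres and guides B cells to the outer follicle (log2 fold change -0.51, SE 0.17, limma p = 0.0107, exact permutation p = 0.0173). None of the other 12 passed that threshold (1.69% of all genes tested were lower and 4.42% higher). Of the 13, 5 had a log2 fold change below 0 (48.6% of all genes tested did), and the median of the list was 0.13. With the same total Gpr183 did not pass either, and 2 of 13 were below 0 (27.4% of all genes). The list's median was then 0.25, against 0.13 for all genes.

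Among coreceptors and regulators of the B cell receptor, Ptprc, which encodes the phosphatase CD45, was lower in stroke (log2 fold change -0.33, SE 0.12, limma p = 0.0183, exact permutation p = 0.00433), with 5 of 6 stroke mice below every sham mouse; it did not pass with the same total or after quantile normalization. Cd81, a tetraspanin that joins CD21 in the coreceptor complex, had a median of 94.1 in sham and 76.2 in stroke (log2 fold change -0.23, SE 0.28, limma p = 0.435, exact permutation p = 0.502). Of 13 tested genes of the tetraspanin and CD20 families, Cd53 was lower (log2 fold change -0.52, SE 0.23, limma p = 0.0386, exact permutation p = 0.0628). The list's median was -0.09, and with the same total it was 0.04, against 0.13 for all genes. With 1 mouse left out, the limma p of Cd53 was under 0.05 in 5 of 12 fits (without sham 5 or 6 or stroke 1, 2 or 3). Its exact permutation p was under 0.05 in 2 (without sham 6 or stroke 1), and the limma call was lost with sham 1 and sham 2 both left out. None of 5 tested complement receptors and regulators and none of 5 tested B1 genes had an unadjusted limma p under 0.05; Cr1l, above, had the smallest of the former, and Bhlhe41, a transcription factor of B1 cells, of the latter (log2 fold change 0.16, SE 0.17, limma p = 0.376, exact permutation p = 0.405).

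**Figure D4:**
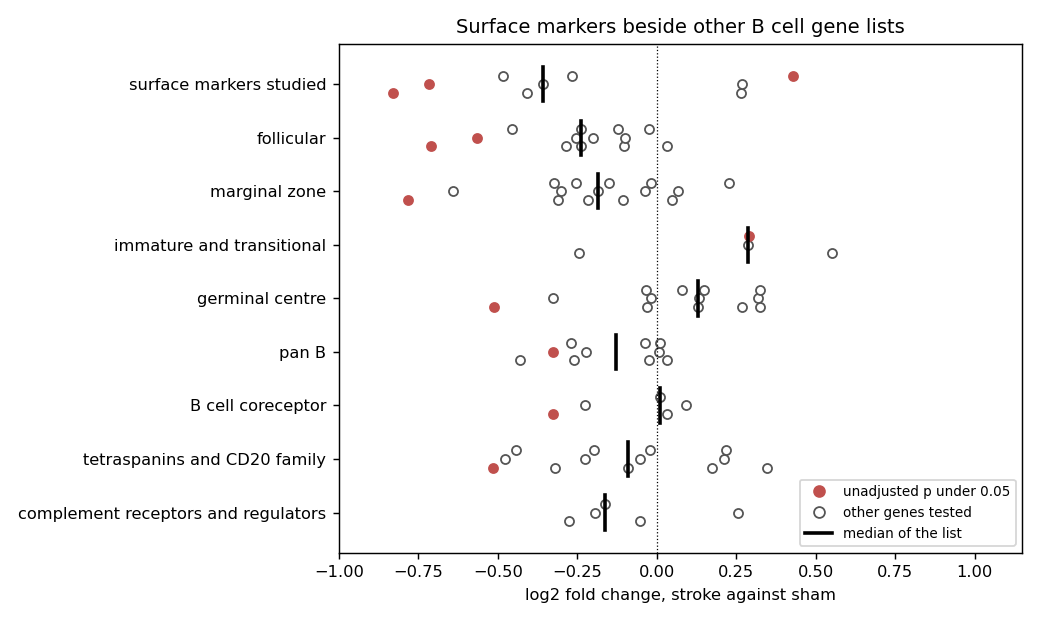
Log2 fold change of stroke against sham for the 9 surface markers and for the tested genes of 8 other B cell gene lists; each point is a gene, red fill marks an unadjusted limma p under 0.05, and black bars are list medians. The medians are -0.36 for the surface markers, -0.24 for follicular, -0.18 for marginal zone and 0.13 for germinal centre genes.

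For each marker the 3 genes with the most similar values over the 12 mice were found by Pearson's r on the log2 scale, as a description. For Cr2 they were Bank1 (0.974), an adaptor of the B cell receptor, Bcl11a (0.970), a B-lineage transcription factor, and Fcer2a (0.964). With the 2 mice farthest from the median of Cr2 left out (sham 4 and stroke 5), these values were 0.843, 0.810 and 0.781. For Fcer2a they were Samd9l (0.974), Il27ra (0.972) and Spice1 (0.971), and without sham 6 and stroke 5 the values were 0.823, 0.694 and 0.737. All 6 values were lower without these mice.

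Cd38 was most like Gimap7 (0.983), Gga2 (0.959) and Bank1 (0.958). Ms4a1 was most like Pnrc2 (0.967), Magt1 (0.963) and Lcp1 (0.958), and Cd24a like Rraga (0.984), Psmb8 (0.973) and Cct3 (0.971). Cd55 was most like Acsl6 (0.921), Nedd9 (0.833) and Igkv4-92 (0.828). The markers with higher means in stroke had other neighbours, namely Rexo4 (0.937), Gm48417 (0.935) and Gm47355 (0.930) for Cd1d1, Scrn2 (0.860), Uck1 (0.841) and Spsb2 (0.837) for Cd9, and Cwc25 (0.929), Etfdh (0.921) and Zfp367 (0.907) for Cd93. With the 2 mice farthest from each marker's median left out, the 3 values were 0.682 to 0.872 for Cd38, 0.897 to 0.914 for Ms4a1, 0.939 to 0.965 for Cd24a, 0.651 to 0.913 for Cd55, 0.866 to 0.880 for Cd1d1, 0.764 to 0.796 for Cd9 and 0.615 to 0.774 for Cd93.

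Stroke 5 and sham 6, the libraries that stood apart, were also left out together. The log2 fold changes were then -0.50 for Cr2, -0.32 for Fcer2a, 0.59 for Cd1d1, -0.66 for Cd24a and -0.34 for Ms4a1, each at an unadjusted limma p under 0.05, against 12.9% of all genes tested in that fit. Cd38 (-0.22), Cd55 (-0.16), Cd9 (0.24) and Cd93 (0.13) did not pass that threshold. This choice was made after the data were seen.

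Markers of B cells were high throughout (summed level of 10 genes, 4381 to 11400 in sham and 5079 to 9034 in stroke), whereas residual transcripts of other cells varied between mice. The summed level of 12 epithelial markers was 44.0 to 1863 in sham and 36.6 to 907 in stroke, led by Fabp2 and highest in sham 1 and sham 2, and only Gp2 was under 1 in every mouse. All 6 epithelial genes tested had a log2 fold change below 0 (48.6% of all genes did), with a median of -1.62, and none had an unadjusted limma p under 0.05. Epithelium also carries Cd9, Cd24a and Cd55; without sham 1 and sham 2 the log2 fold changes were 0.45 (exact permutation p = 0.0810) for Cd9, -0.25 (exact permutation p = 0.490) for Cd24a and -0.40 (exact permutation p = 0.0571) for Cd55. By the limma p, Cd9 and Cd55 passed 0.05 in this fit, as did Cr2, and 4.66% of all genes did. Cr2 and Cd1d1 then had log2 fold changes of -0.91 (exact permutation p = 0.0238) and 0.35 (exact permutation p = 0.129).

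Follicular dendritic cells of the follicle stroma carry CD21 as well. The summed level of 10 stromal markers was 8.21 to 95.4 in sham and 11.4 to 31.3 in stroke, led by Mfge8, and 5 of the 10 were under 1 in every mouse. Endothelial and myeloid cells carry Cd93: 4 of 8 endothelial markers were under 1 in every mouse, the endothelial sum, most of it Pecam1, was 79.5 to 107 in sham and 88.2 to 110 in stroke, and the monocyte and macrophage sum, led by Lyz2, was 41.8 to 362 and 54.8 to 202. Plasma cell markers, led by Jchain, summed to 366 to 1569 in sham and 434 to 1174 in stroke, T cell markers, led by Lck, to 89.4 to 166 and 75.5 to 190, neutrophil markers, led by Cxcr2, to 4.18 to 7.18 and 5.40 to 9.30, and erythroid markers, led by Alas2 in sham and Hba-a2 in stroke, to 5.08 to 18.5 and 7.29 to 33.7. Paneth cell markers, led by Lyz1 in sham and Defa24 in stroke, summed to 27.9 to 169 in sham and 48.0 to 323 in stroke, and dendritic cell markers, led by Itgax in sham and Flt3 in stroke, to 28.4 to 48.1 and 23.9 to 55.5. Of 5 dendritic genes tested, 2 were higher (4.42% of all genes were), Flt3 (log2 fold change 0.50, SE 0.14, limma p = 0.00373, exact permutation p = 0.00649) and Siglech (log2 fold change 0.51, SE 0.23, limma p = 0.0471, exact permutation p = 0.0758); Zbtb46, Batf3 and Itgax had log2 fold changes of 0.06, -0.08 and -0.28, and the list's median was 0.06. With 1 mouse left out, the limma p was under 0.05 in all 12 fits for Flt3 and in 4 of 12 for Siglech (without sham 1 or 3 or stroke 2 or 5), whose call was also lost with a pseudocount of 1, a filter on the mean, no filter, quantile normalization, and with sham 6 and stroke 5 both left out. The part of such cells in the marker results was not tested.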

How the data were processed

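The authors sequenced RNA of PP B cells from 6 sham and 6 stroke mice. According to the submitters' processing notes and the methods, reads were checked with FastQC, trimmed with Trimmomatic 0.39, quantified with kallisto 0.48.0 against Ensembl release 102 (GRCm38) and tested with sleuth 0.30.0 in R 4.1.2. The deposited values are a signal per gene labelled as normalized TPM; the columns sum to between 559570 and 1404340, so they are not plain TPM. Read counts were not used here, so depth is unknown and no counting interval is given.

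From the table, 12590 genes passed a filter (1 or more in all mice) and entered a fit of log2(value + 0.5) by group alone in limma 3.58.1 (R 4.3.3), with Benjamini-Hochberg adjustment over all of them. Fold changes on this scale understate those of low genes. Single genes were also tested with exact two-sided permutation tests over the 924 assignments of mice (scipy 1.17.1); the labels do not say that mice came from separate litters or cages. Genes named were all 9 markers, their close copies, the 3 most similar genes of each, the genes of each B cell list with an unadjusted p under 0.05 or the smallest p, and the highest gene of each list of other cells; Cd81 and Notch2, Gp2, Hba-a2, Lyz1, Flt3, Siglech, Zbtb46 and Batf3 were named after their values were seen. The members and lists were chosen with earlier results of these data known. Positions are from GENCODE mouse release M21 and promoters from RefSeq. The fit was checked on simulated data. Alternatives were other pseudocounts, filters and scalings, a replicate block, sample weights, an intensity trend, removal of a length trend, and leaving out each mouse. No mouse was left out of the main values. Some results are not reported here.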

Additional observations from a re-analysis of the deposited data

Results flagged for a closer look

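For the 9 surface markers, their copies Cr1l and Cd55b and the other genes given with an exact test, each group of 6 mice was checked for a mouse far from the rest, by Dixon's test at the 95% level. Of 46 groups of 23 genes, 7 held such a mouse, and chance gives about 1 in 20. Stroke 5 was far below the other stroke mice for 3 markers: Fcer2a at 48.6 (next 177), Cr2 at 47.1 (next 169) and Cd38 at 40.0 (next 84.5). It was also far below them for Cxcr5 at 38.3 (next 100), Hes1 at 4.50 (next 10.1) and Ptprc at 329 (next 449). Sham 6 was far above the other sham mice for Cd1d1, at 21.4 (next 13.3). The 6 values of stroke 5 come from 1 library and are not independent of each other. Without stroke 5 the log2 fold changes of Cr2, Fcer2a and Cd38 were -0.51, -0.36 and -0.20.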

How the results depend on the processing

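The log2 fold changes of all 9 markers kept their signs under the 26 alternatives, and none reached an adjusted p under 0.05; over these, the adjusted p ranged from 0.222 to 0.991 for Cr2, 0.342 to 0.991 for Fcer2a and 0.170 to 0.999 for Cd1d1. The count of markers at an unadjusted p under 0.05 (3) was 0 with each mouse scaled to the same total, with or without immunoglobulin genes, 1 after quantile normalization, 5 with sample weights, and 1 to 4 with each mouse left out (1 without sham 2, sham 4 or sham 5). Scaling to the same total gave Cr2 -0.70, Fcer2a -0.59 and Cd1d1 0.55 (exact permutation p = 0.0931, 0.236 and 0.149) and moved the median of all genes to 0.13; the cause was not tested. Of all genes, 770 were called at that threshold (213 lower, 557 higher): 417 and 414 with the same total (69 and 348; 71 and 343), 1768 with no filter, 1569 with sample weights (703 and 866) and 564 to 2095 with each mouse left out (2095 without sham 6, 1158 lower and 937 higher). Quantile normalization gave 327 lower and 378 higher. With sham 6 and stroke 5 both left out, 1630 genes and 5 markers were called; this choice, leaving out sham 1 and sham 2 (587 genes and 3 markers, Cr2, Cd55 and Cd9), and removing the length trend were made after seeing the data. An adjusted p under 0.05 was reached by 1 gene (Gm9406) with a filter on the mean of at least 1, and by 0 to 1 with each mouse left out (Ston1, without sham 1). The labels do not say what the replicate numbers share, and same-numbered mice deviated together with a correlation over 0.1 in 4 of 6 pairs (0.0134 to 0.494), 2 of 6 correlating best with their own number; a replicate block called 1174 genes and 4 markers, Cd38 being the added one. The depth of each mouse is unknown, so the counting error of low markers such as Cd93 could not be given.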
